A study of Homo sapiens with 3 samples.

Results

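SMAD2/3 binding was examined around 8 genes that encode secreted signalling proteins, namely CCL20, CXCL8, IL11, LIF, IL6, IL1A, IL1B and PTHLH. The genes were chosen by name, and each was given the hg19 span of its body plus 50 kb on either side, with IL1A and IL1B sharing a span, which made 7 windows. The windows held 11 of the 5486 peaks in the series, 6 of 2206 in the list for 1.5 h and 5 of 3280 in the list for 16 h. The cells were MCF10A MII, an H-Ras transformed human breast epithelial line grown with serum, EGF, cholera toxin, hydrocortisone and insulin, and both ChIP libraries came from cells given 5 ng/ml TGFβ3. One was made 1.5 h and the other 16 h after addition, with an antibody against SMAD2/3, so both groups are treated. The remaining sample was input DNA from untreated cells and was not analysed here.

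TGFβ binds a pair of receptor kinases at the cell surface, which phosphorylate SMAD2 and SMAD3. These join SMAD4, enter the nucleus and bind DNA, often beside other factors such as AP-1. In carcinoma cells TGFβ is known to alter the output of secreted factors, and IL11 and PTHLH are textbook examples from breast cancer cells that spread to bone. The question here is which of these genes had a SMAD2/3 peak nearby early and late after TGFβ. A peak near a gene does not show that the gene responded, and expression was not analysed here.

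CCL20, IL11 and LIF had at least 1 SMAD2/3 peak in their windows at each time, and the other 5 genes had none at either time. CCL20 had 1 peak at 1.5 h and 1 at 16 h, IL11 had 1 and 2, and LIF had 4 and 2. Windows of the same mean length, 114 kb, laid end to end along each chromosome gave the background. Of 25839 such windows, 5.79% held a 1.5 h peak, 10.3% held a 16 h peak and 2.34% held peaks of both lists, against 3 of the 7 gene windows by each of these measures. The background windows were laid without regard to genes, while the 7 were placed around genes, and no background placed around genes was made. The genes were also chosen with earlier results of these data known, so the excess over the background is a description and was not tested. With 1 library per time there was no spread between samples, sequencing depth is unknown from the lists, and a site missing from a list may lie just under the authors' threshold there.

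**Figure D1:**
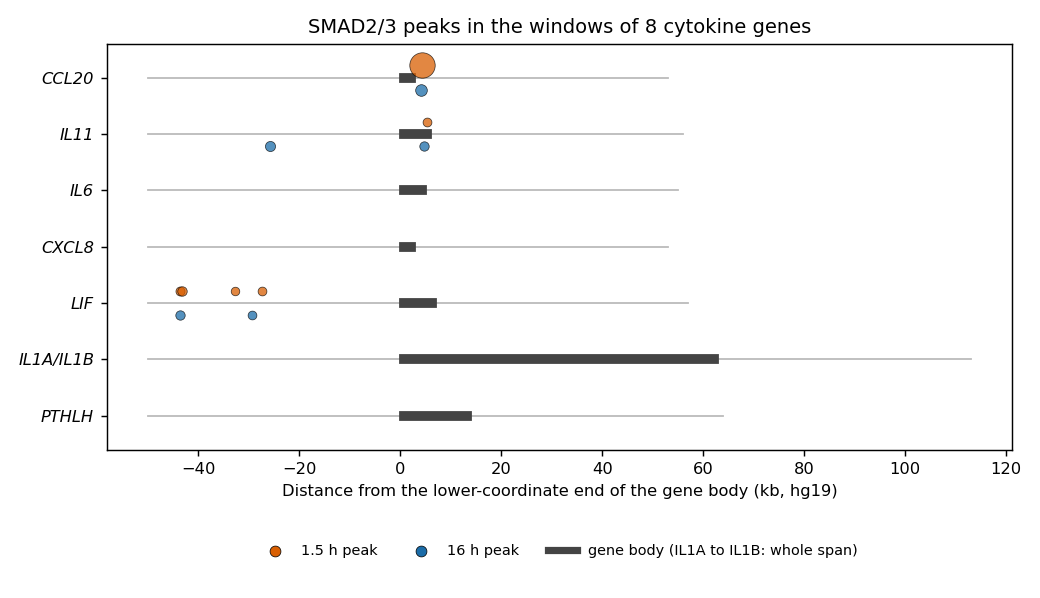
Midpoints of SMAD2/3 peaks around each gene, as distance in kb from the lower-coordinate end of the gene body on hg19. Circles above each line are 1.5 h peaks and circles below are 16 h peaks, with area growing with the authors' score. Dark bars are gene bodies, and thin lines are the windows. Peaks appear at CCL20, IL11 and LIF, and the windows of IL6, CXCL8, IL1A/IL1B and PTHLH are empty.

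The peaks differed widely in score, a value per peak from the authors' peak caller, and only the CCL20 peaks passed 100. At 1.5 h the scores of the 6 peaks ran from 52.2 to 931 with a median of 62.9, against a median of 64.9 over that whole list. At 16 h the 5 peaks scored 58.0 to 149 with a median of 75.7, against 56.2 over that list. One peak per time scored 100 or more, the CCL20 peak in both cases, beside 20.1% of all 1.5 h peaks and 11.5% of all 16 h peaks. The definition of the score is not stated in the files, and scores can depend on the depth of their own library, so ranks were taken within a list and no ratio of scores between times was computed.

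**Figure D2:**
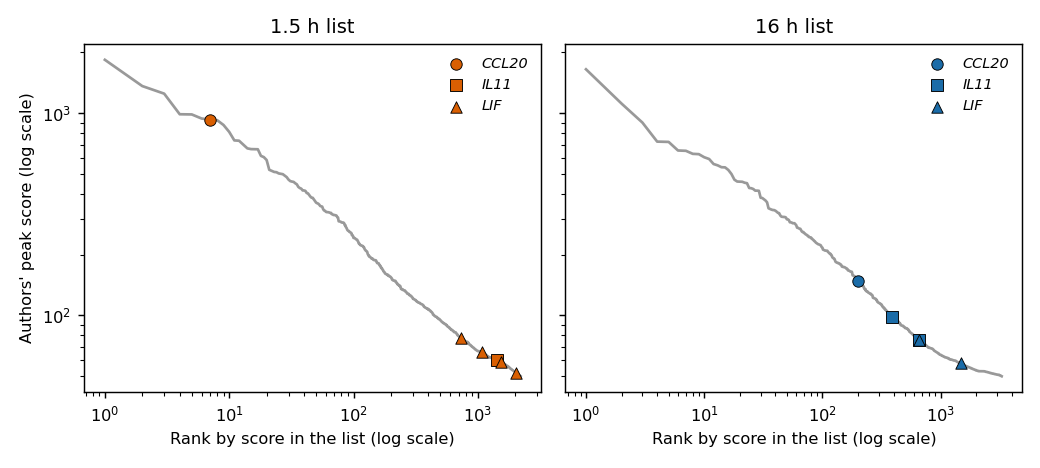
Authors' score against rank within the 1.5 h list (left) and the 16 h list (right), both axes logarithmic. The grey line is the whole list, and circles, squares and triangles mark peaks at CCL20, IL11 and LIF. The CCL20 peak is rank 7 at 1.5 h and rank 198 at 16 h, and the IL11 and LIF peaks lie lower in both lists.

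CCL20, the chemokine that attracts CCR6-bearing dendritic cells and lymphocytes, carried a SMAD2/3 site among the highest-scoring of the 1.5 h list. The 1.5 h peak lay at chr2:228682790-228683859, was 1070 bp wide and scored 931. It ranked 7 of 2206 by score and 9 of 2206 by width. The gene body as used here spans 228679 to 228682 kb on the plus strand, so the peak began 0.79 kb beyond the 3' end, with gene limits known to the nearest 1 kb. Whether it overlaps an exon of any transcript was not determined.

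The 16 h peak at CCL20, at chr2:228682886-228683249, was 364 bp wide and scored 149. It ranked 198 of 3280 by score, which is within the top 6.04%, and 173 of 3280 by width. It lay wholly inside the 1.5 h peak and covered 34.0% of it, on the side nearer to the gene. The 1.5 h peak reached 96 bp farther towards CCL20 and 610 bp farther away from it, and the midpoints lay 257 bp apart. No other peak of either list lay in this window.

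The CCL20 site was thus listed at both times, but it held a different place among such sites early and late. There were 494 one-to-one pairs of overlapping peaks over the series. Within these pairs the CCL20 site ranked 7 by 1.5 h score and 147 by 16 h score. The 10 pairs of highest 1.5 h score, CCL20 among them, had 16 h ranks from 1 to 171 with a median of 24.5. Of these 10, 1 had a lower 16 h rank than CCL20. The drop was not particular to CCL20, since the pairs ranked 2, 8 and 10 at 1.5 h ranked 171, 106 and 111 at 16 h. The rest of the 10 had 16 h ranks from 1 to 27. The pairs are the same sites in both rankings, but each ranking comes from a single library, and the difference was not tested.

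**Figure D3:**
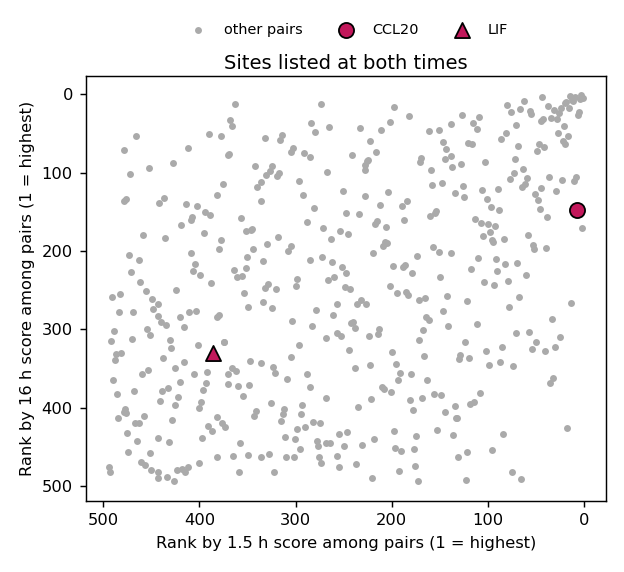
Rank of each of 494 pairs of overlapping peaks by 16 h score against its rank by 1.5 h score, with rank 1 at the upper right. Grey points are all other pairs. The CCL20 pair (circle) has ranks 7 and 147, and the LIF pair (triangle) has ranks 386 and 330.

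CXCL8, the neutrophil-attracting chemokine also called interleukin 8, had no peak in its window on chromosome 4 (body 74606 to 74609 kb) at either time. The nearest site lay 263 kb from the gene body on the higher-coordinate side, and both lists held it. The 1.5 h list gave it at chr4:74872055-74872155, scoring 62.1, and the 16 h list at chr4:74872043-74872145, scoring 63.6. In gene order, CXCL8 is followed on that side by CXCL6, another chemokine gene. Which gene lies closest to the site was not determined.

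IL11, a cytokine that signals through the shared receptor subunit gp130, had peaks inside the gene near its start at both times, but at neighbouring positions. The 1.5 h peak at chr19:55881248-55881388 was 141 bp wide, scored 60.1 and ranked 1415 of 2206. The 16 h peak at chr19:55880573-55880784 was 212 bp wide, scored 75.7 and ranked 657 of 3280. They did not overlap and were separated by 463 bp, so by the overlap rule each was listed at 1 time only. IL11 is on the minus strand with a body of 55876 to 55882 kb, and the peak midpoints lay 0.68 kb (1.5 h) and 1.32 kb (16 h) inward from the end that holds its start. With limits to the nearest 1 kb, exon and intron were not assigned.

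A second 16 h peak in the IL11 window lay at chr19:55849929-55850352, 25.7 kb past the 3' end of the gene. It was 424 bp wide, which is rank 109 of 3280 by width, scored 98.5 and ranked 387 by score. It was the highest-scoring peak of the window, and the closest 1.5 h peak, the one inside IL11, was 30895 bp away. The coding genes next to IL11 on this side in gene order are GARIN5B and COX6B2, and the distance to them on hg19 was not measured. Genes farther along were not looked up, so which gene lies closest to this peak was not determined. By count, 2 peaks or more at 16 h, as here and at LIF, were found in 1.64% of all genome windows. That limit was taken from the counts of these genes.

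**Figure D4:**
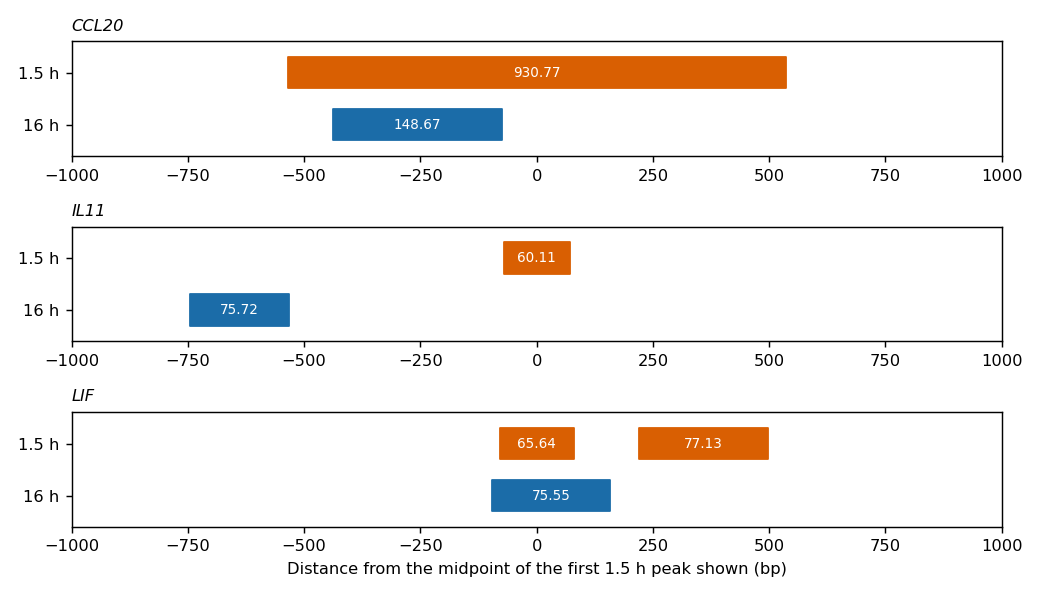
Extent of the peaks at CCL20, inside IL11 and at the far end of the LIF cluster, in bp from the midpoint of the first 1.5 h peak shown. Bars are 1.5 h (upper) and 16 h (lower) peaks with the authors' score printed in each. The 16 h bar lies within the 1.5 h bar at CCL20, the bars at IL11 are 463 bp apart, and at LIF the 16 h bar covers the first 1.5 h bar.

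Because the IL11 peaks lay close to the gene's start, the 250 bases before that start are shown beside those of CCL20, whose peaks lay at its other end, and of IL6, which had no peak in its window. Sequences are from RefSeq on GRCh38.p14, 5' to 3' on the gene's strand, and their positions are not comparable with the hg19 peaks. Capitals mark a SMAD box (GTCTG, or CAGAC on the opposite strand) or an AP-1 site (TGANTCA, the same on both strands).
IL11, chr19:55370464-55370713, minus strand: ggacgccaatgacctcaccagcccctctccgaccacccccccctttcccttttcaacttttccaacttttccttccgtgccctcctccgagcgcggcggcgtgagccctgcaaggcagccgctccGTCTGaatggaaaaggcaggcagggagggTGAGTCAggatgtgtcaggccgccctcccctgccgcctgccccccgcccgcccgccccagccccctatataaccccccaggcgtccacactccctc
CCL20, chr2:227813592-227813841, plus strand: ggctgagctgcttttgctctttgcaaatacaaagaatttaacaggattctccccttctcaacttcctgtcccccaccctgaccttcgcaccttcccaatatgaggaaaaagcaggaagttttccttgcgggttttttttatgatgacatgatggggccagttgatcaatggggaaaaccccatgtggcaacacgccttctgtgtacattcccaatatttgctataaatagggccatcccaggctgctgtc
IL6, chr7:22726950-22727199, plus strand: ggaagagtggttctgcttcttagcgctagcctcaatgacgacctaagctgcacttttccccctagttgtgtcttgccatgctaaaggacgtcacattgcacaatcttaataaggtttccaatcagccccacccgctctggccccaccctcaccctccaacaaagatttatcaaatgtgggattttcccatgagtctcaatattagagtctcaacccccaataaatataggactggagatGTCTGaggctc

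The IL11 sequence held 1 SMAD box, beginning 125 bases before the start, and 1 AP-1 site, beginning 96 bases before it. IL6 held 1 SMAD box, beginning 11 bases before its start, and no AP-1 site. CCL20 held neither. A site matching the strict NF-κB consensus, searched for on both strands with no mismatch allowed, began 79 bases before the start of CCL20 and 73 bases before that of IL6, and none was found for IL11. None of these matches overlapped another.

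Of the 8 genes, 7 were in the promoter table, and LIF was the exception. A SMAD box was found in 3 of the 7 (IL11, IL6 and PTHLH), against 38.0% of all 35116 promoters in the table. An AP-1 site was found in 3 of the 7 (IL11, CXCL8 and IL1A), against 6.57% of all promoters. IL1A has 2 entries for different starts, and both held at least 1 AP-1 site. The counts of 7 are per gene, while the shares are per promoter entry, and shares per gene were not computed. IL11 was the one gene here with both motifs, which 2.60% of all promoters had. The strict NF-κB consensus was matched in 2 of the 7 (CCL20 and IL6), against 9.96% of all promoters. Variant sites were not counted, among them the known NF-κB site of the CXCL8 promoter, so this is not a count of all NF-κB sites. A match describes letters only. By the gene limits used here, the peaks in the IL11 and CCL20 windows lay inside the gene or beyond its 3' end. They therefore did not cover these stretches, though those limits could not be checked against an hg19 annotation.

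LIF, a gp130 cytokine like IL11, had the most peaks, and all 6 lay 27.3 to 43.6 kb from its body (30636 to 30643 kb on chromosome 22), on the lower-coordinate side. At 1.5 h, 4 peaks spread over 16.4 kb, a number that 0.279% of all genome windows reached. This limit was taken from LIF's own count, and the share was not recomputed with close peaks joined or low-scoring peaks left out. The peaks lie towards HORMAD2, the next coding gene on that side, while OSM, another gp130 cytokine gene, is the next coding gene on the other side.

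At the far end of this cluster, the 1.5 h list held a peak at chr22:30592282-30592439, scoring 65.6, and another at chr22:30592580-30592856, scoring 77.1, with 140 bp between them. The 16 h peak at chr22:30592264-30592518, scoring 75.55, covered all of the first and ended 61 bp before the second. Whether the 1.5 h peaks are pieces of the same site was not tested, and joining peaks under 500 bp apart left LIF with 3 peaks at 1.5 h. The overlapping pair ranked 386 by 1.5 h score and 330 by 16 h score among the 494 pairs.

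Closer to LIF, the remaining peaks scored under 60 and did not overlap between times. The 1.5 h list held chr22:30603182-30603320, scoring 52.2, and chr22:30608604-30608726, scoring 58.5. The 16 h list held chr22:30606573-30606672, scoring 58.0, which lay 3252 bp from the first of these and 1931 bp from the second. No peak at LIF scored above 77.1, and the highest rank was 661 of 3280 at 16 h and 736 of 2206 at 1.5 h.

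IL6, the third gp130 cytokine of the group and an inflammatory mediator, had no peak in its window on chromosome 7 (body 22767 to 22772 kb). The nearest 1.5 h peak lay 163 kb away at chr7:22604284-22604367 with a score of 56.1. It was listed at 16 h too, at chr7:22604259-22604395 with a score of 51.6. Nearer to IL6, the 16 h list alone held chr7:22612820-22613052, scoring 86.5, and chr7:22656920-22657026, scoring 51.1, the latter 110 kb from the gene. All of these were on the upstream side, since IL6 is on the plus strand.

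IL1A and IL1B encode the inflammatory cytokines interleukin 1 alpha and beta and lie side by side on the minus strand of chromosome 2, spanning 113531 to 113594 kb together. Their shared window was empty in both lists. A 1.5 h peak at chr2:113472503-113472601, scoring 59.0, lay 58.4 kb from the span and was the closest to any window limit from outside. On the inside, the closest to a limit were the LIF peaks, up to 43.6 kb from the gene. The nearest 16 h peak to IL1A and IL1B was 405 kb away, with a score of 140.

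PTHLH, which encodes parathyroid hormone-related protein, was the gene farthest from any peak. Its body on chromosome 12 spans 28111 to 28125 kb on the minus strand. The nearest 1.5 h peak lay 780.1 kb away and scored 99.2. At 16 h the nearest peak lay 798 kb away, on the other side of the gene, and scored 52.1.

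**Figure D5:**
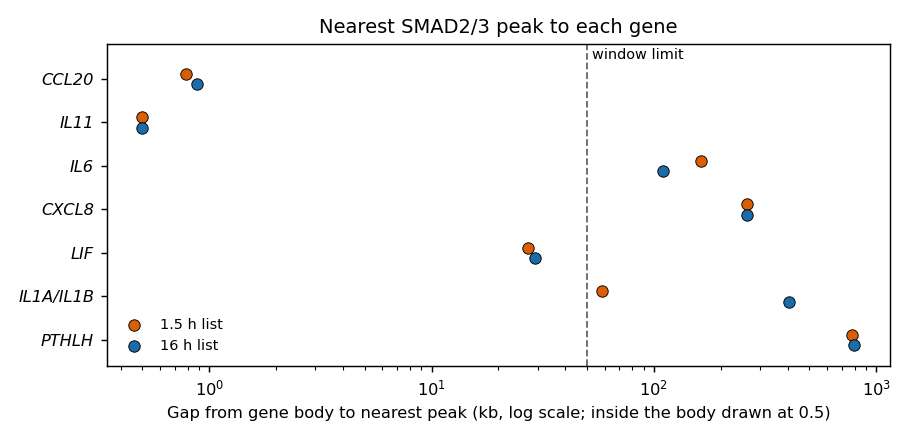
Gap in kb (log scale) from each gene body to the nearest peak of the 1.5 h and 16 h lists, with a dashed line at 50 kb. Peaks inside a body are drawn at 0.5. CCL20, IL11 and LIF lie left of the line at both times, and PTHLH lies farthest right, at 780.1 and 798 kb.

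In all, 2 of the 6 peaks at 1.5 h overlapped a 16 h peak, against 25.3% of the whole 1.5 h list, and 2 of the 5 peaks at 16 h overlapped a 1.5 h peak, against 16.6% of the whole 16 h list. The sites concerned were the one beyond CCL20 and the far LIF site. The other 4 peaks at 1.5 h and 3 at 16 h were listed at 1 time only, including those inside IL11, and their scores lay between 52.2 and 98.5. Counting peaks up to 500 bp apart as the same site raised the numbers to 4 of 6 and 3 of 5, because the IL11 peaks and the second far LIF peak were then matched. Requiring the overlap to cover at least 50% of both peaks left 1 at each time, the LIF site, because the 16 h peak at CCL20 covered 34.0% of the 1.5 h peak. The shares of the whole lists were not computed under either of these rules, so these counts have no background beside them.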

How the data were processed

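SMAD2/3 ChIP-seq peak lists were analysed for 1 library at 1.5 h and 1 at 16 h. The authors deposited each list as headerless intervals, each peak with a score. Bowtie 1.1.0, Picard and MACS 1.4.2 are the tools, and hg19 the build, per the submitters' processing notes. Settings and any use of the input library are not stated there, and read depth is unknown, so no interval or test was possible.

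Starts were made 1-based. Peaks overlapping a window by at least 1 bp were counted, and overlap between lists also meant at least 1 bp. A pair was 2 overlapping peaks with neither overlapping another peak by more bases. Genome windows of 114 kb tiled each chromosome between its first and last listed peak. The gene limits, in kb, came with the choice of genes and could not be checked against an hg19 annotation here. Strand, gene order and promoters came from RefSeq on GRCh38.p14. Motifs were searched in the 250 bases before each start. The wider list of cytokine genes needs hg19 gene positions and was not analysed here.

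All 8 genes were named whatever their peaks. Genes, limits and lists were chosen with earlier results of these data known. Alternatives were flanks, score limits, overlap rules, list length, merging, tile length and motif. Python 3.11.15, numpy 2.4.6, pandas 2.3.3 and matplotlib 3.10.9 were used, and the overlap code was tested on simulated data.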

Additional observations from a re-analysis of the deposited data

How the results depend on the processing

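CCL20 and IL11 had a peak at both times with flanks of 10, 25, 50 and 100 kb. Under a score limit of 60, CCL20, IL11 and LIF each kept a peak in both lists. The IL11 peak at 1.5 h, scoring 60.11, only just passed that limit. LIF's count fell from 4 to 2 in the 1.5 h list and from 2 to 1 in the 16 h list. With flanks of 10 or 25 kb, LIF dropped out and each list held 2 peaks in the windows, against 6 at 1.5 h and 5 at 16 h. With 100 kb, 5 genes had a 1.5 h peak, because the window shared by IL1A and IL1B gained 1. With a score of at least 100, each list held 1 peak, at 1 gene (CCL20), and it was listed at both times. Background shares were not recomputed for these other flanks or score limits. These counts therefore have no background beside them, and the shares given for 114 kb windows do not apply to them. Cutting the 16 h list by score towards the length of the 1.5 h list, which kept 2324 peaks because ties at the limit stayed in, changed no count of peaks or genes per window. Shared peaks were not recounted there. An overlap of 50% of both peaks left 1 shared peak per list, and a gap of up to 500 bp gave 4 shared peaks at 1.5 h. Whole-list shares were not computed under these rules. Tiles of 100 kb gave background shares of 5.07% at 1.5 h and 9.05% at 16 h, which follows from their shorter length. The longer SMAD motifs GTCTAGAC and GGCGCC were found in the promoters of 0 of the 7 genes, against 0.182% and 16.4% of all promoters. Of 98 counts per window under these alternatives, 14 moved by over 1.5 times or to or from 0. A window with no peak could change only with the 100 kb flank. Many of the counts that stayed the same were therefore fixed at 0 in advance. No paired analysis was possible because there was 1 library per time, which also allowed no leave-one-out. Since depth is unknown, whether sites listed at 1 time were unbound at the other was not tested.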

Other observations

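The wider neighbourhoods differed in how many SMAD2/3 peaks they held. Within 1000 kb on either side of the gene body, CCL20 had 1 peak at 1.5 h, the one described beyond its 3' end, and 4 at 16 h. IL11 had 2 and 5, LIF had 6 and 3, and IL6 had 5 and 6. The joint IL1A and IL1B span had 5 at 1.5 h and 1 at 16 h, CXCL8 had 2 and 3, and PTHLH had 1 and 2. Over the stretches tiled, the lists held on average 0.746 peaks per 1000 kb at 1.5 h and 1.11 at 16 h. Each count above covers about 2000 kb, so it is not on the same length as these averages. By these counts, the strong early CCL20 site was the only 1.5 h peak in a stretch of about 2000 kb, and PTHLH also had only 1. At an average of 0.746 per 1000 kb, a count of 1 over that length is not unusual. It does not set either gene apart. LIF's peaks formed most of those around that gene. These counts are from 1 library per time and were not tested.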
